A study of Mus musculus with 2 samples.

Results

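Bach2 (ENSMUSG00000040270) and Bach1 (ENSMUSG00000025612) encode the BACH proteins, and their loci were examined for binding of Notch1 to chromatin. Member peaks were all peaks of the Notch1 list that overlapped, by at least 1 bp, the gene body or the 100 kb on either side of any annotated start site of either gene. By this rule 11 of the 5910 nuclear peaks were members, 10 at Bach2 and 1 at Bach1. Bach2 was selected on this same readout, for its dense peaks. The number of its peaks, their spacing and their scores are therefore given as descriptions, with no test.

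The study made 1 library with a rabbit monoclonal antibody against Notch1 (clone D1E11) and 1 input library without antibody. Both came from thymic gamma delta T cells, taken from wild type C57BL/6 mice on postnatal days 0 to 3 and fixed in 0.5% formaldehyde. Chromatin immunoprecipitation followed by sequencing (ChIP-seq) finds stretches of DNA where an antibody enriches fragments, and each such stretch is called a peak. With 1 Notch1 library there was no replicate, no condition was compared, and the spread between animals or preparations is unknown. Read depth is unknown from the peak list, and the input library was not analysed here. The sources used here do not give how many animals were pooled or how the cells were purified.

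BACH proteins are transcriptional repressors that pair a BTB domain with a basic leucine zipper. They bind DNA as dimers with the small Maf proteins, at sites that contain the core sequence also bound by the activator AP-1. Bach2 is known in lymphocytes for holding back effector genes, in part by occupying AP-1 sites, and for delaying plasma cell differentiation in B cells through repression of Prdm1. Bach1 is expressed in many tissues and represses genes for heme breakdown and the oxidative stress response until heme releases it from DNA. The receptor Notch1 is cleaved on activation, and its intracellular domain then moves to the nucleus and reaches DNA through the protein RBPJ, which recognises the core TGGGAA.

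Peaks are lettered A to J along the Bach2 locus and K at Bach1. The sequences below are the reference mouse genome, build mm10, plus strand. Peaks A, B, J and K are the 4 members that held a core TGGGAA on either strand, and each core is shown in capitals with the 20 bases on either side.

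Bach2 peak A (chr4:32206643-32206688): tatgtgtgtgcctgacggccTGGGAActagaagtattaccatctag
Bach2 peak B (chr4:32250145-32250190): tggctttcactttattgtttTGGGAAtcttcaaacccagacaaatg
Bach2 peak J (chr4:32616775-32616820): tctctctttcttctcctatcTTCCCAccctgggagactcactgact
Bach1 peak K (chr16:87726736-87726781): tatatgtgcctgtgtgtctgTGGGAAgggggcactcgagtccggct

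In J the core lies on the minus strand and so reads TTCCCA. In K it is part of TGTGGGAA, a form of the longer RBPJ consensus. The 3 peaks with the highest scores at Bach2, namely B, C and E, are shown by the 300 bp around their centres. The window of B is shown for the sequence in capitals, TGCTGACTCA at chr4:32249908-32249917. It is an AP-1 core preceded by TGC, the form of site that BACH and small Maf proteins bind.

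Bach2 peak B (chr4:32249859-32250158): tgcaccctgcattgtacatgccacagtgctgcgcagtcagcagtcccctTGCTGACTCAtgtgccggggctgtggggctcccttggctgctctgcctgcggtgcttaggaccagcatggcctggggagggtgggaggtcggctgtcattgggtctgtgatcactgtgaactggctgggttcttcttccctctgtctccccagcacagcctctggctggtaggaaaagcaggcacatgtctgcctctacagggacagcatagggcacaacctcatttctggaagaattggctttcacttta

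In the window of C, the capitals mark a match to the ETS sequence AGGAAG read on the minus strand.

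Bach2 peak C (chr4:32250470-32250769): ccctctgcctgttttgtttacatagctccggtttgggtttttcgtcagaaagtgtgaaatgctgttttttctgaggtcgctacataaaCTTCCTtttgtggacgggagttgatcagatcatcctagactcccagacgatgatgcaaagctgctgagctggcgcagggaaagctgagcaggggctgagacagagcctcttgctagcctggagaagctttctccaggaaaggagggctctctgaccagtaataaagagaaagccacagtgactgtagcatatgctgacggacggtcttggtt

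The window of E is from the peak with the highest score. Its capitals mark, from left to right, the E-box CAGCTG, an ETS match, the E-box CAGGTG and the RUNX sequence TGTGGT.

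Bach2 peak E (chr4:32258209-32258508): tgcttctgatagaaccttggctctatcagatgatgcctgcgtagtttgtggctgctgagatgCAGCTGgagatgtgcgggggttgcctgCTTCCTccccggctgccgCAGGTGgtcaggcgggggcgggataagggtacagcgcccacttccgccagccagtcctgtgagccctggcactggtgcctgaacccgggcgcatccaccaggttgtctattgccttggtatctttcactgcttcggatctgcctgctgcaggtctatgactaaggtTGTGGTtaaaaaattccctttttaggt

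The window of the Bach1 peak is shown for comparison, with its RBPJ core and the E-box CAGGTG, read on the minus strand, in capitals.

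Bach1 peak K (chr16:87726712-87727011): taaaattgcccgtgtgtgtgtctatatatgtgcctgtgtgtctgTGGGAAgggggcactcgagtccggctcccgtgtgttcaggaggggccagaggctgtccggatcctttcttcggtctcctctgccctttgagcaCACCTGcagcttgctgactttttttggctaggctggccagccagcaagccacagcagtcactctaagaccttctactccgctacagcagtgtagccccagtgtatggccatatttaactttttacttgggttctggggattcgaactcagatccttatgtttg

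Bach2 lies on the plus strand of chromosome 4 from 32238804 to 32586108, a gene body of 347.3 kb with 7 annotated start sites. With the flanks of the rule its window measured 536.1 kb and held 10 peaks, 8 of them in the gene body. Bach1 lies on the plus strand of chromosome 16 from 87698945 to 87733346, a gene body of 34.4 kb with 3 annotated start sites. Its window of 200.1 kb held 1 peak, which lay in the gene body. Having a peak by this rule was common, since 10144 of 21938 protein-coding genes (46.2%) had at least 1. Having at least 10 was shared by 25 genes (0.114%), Bach2 included.

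Per length, the window of Bach2 held 18.7 peaks per Mb and that of Bach1 5.0 peaks per Mb, against 2.23 peaks per Mb over the nuclear genome without assembly gaps. Within the gene bodies the order was the other way, at 23.0 peaks per Mb for Bach2 and 29.1 for Bach1, although the value for Bach1 rests on 1 peak in a short gene. The Bach2 peaks together covered 4297 bp, or 0.801% of the window. No other peak lay close to the limits of the rule at Bach2. Outside the gene body, the members nearest to those limits were A, 32.1 kb before the first start site with a score of 592.5, and J, 41.8 kb past the last start site with a score of 1069. Just outside, the next peaks were 1090 kb before the nearest Bach2 start site (score 782.1) and 287 kb after the last one, in an intron of Ankrd6 (score 764.0). At Bach1 the next peaks lay 178 kb before a start site (score 624.5) and 146 kb after one (score 1029).

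**Figure D1:**
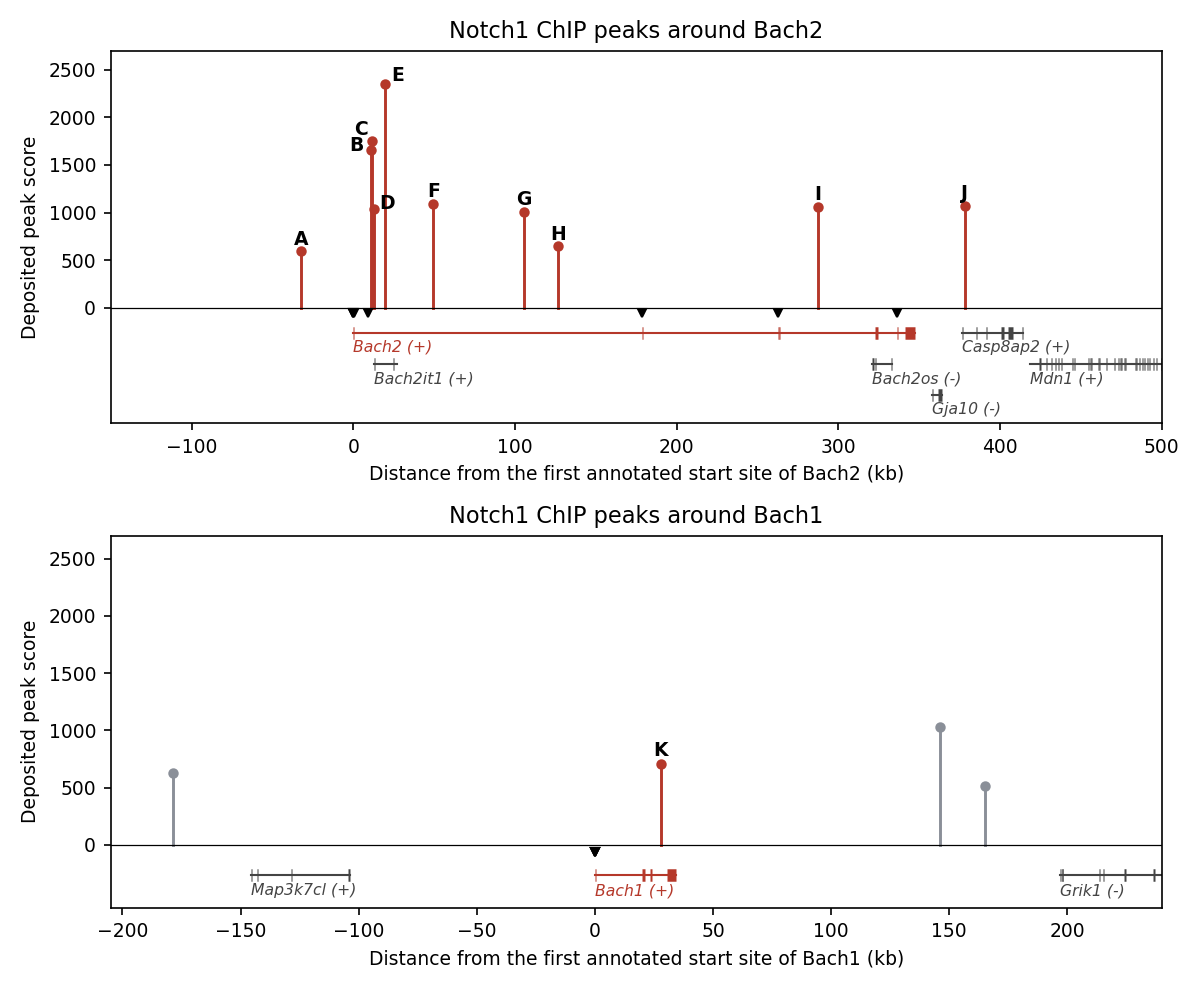
Notch1 ChIP peaks at Bach2 (top) and Bach1 (bottom), with the distance from the first annotated start site in kb on the horizontal axis and the deposited peak score on the vertical axis. Red stems are member peaks A to K, grey stems are peaks outside the rule, triangles are annotated start sites, and the gene models below show exons as boxes with the strand in brackets; peaks B to E stand together, with centres 11.2 to 19.55 kb after the first Bach2 start site.

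Peaks B, C, D and E formed a group near the start of the long first intron. B spanned 635 bp from 32249691 to 32250325 with a score of 1656, the authors' own value for each peak. C began 21 bp after B ended and spanned 545 bp from 32250347 to 32250891, with a score of 1752. D followed after 381 bp, from 32251273 to 32251653, with a score of 1042. The 3 peaks B to D thus lay within 1963 bp. Runs of 3 neighbouring nuclear peaks were as tight or tighter at 26 of 5869 places on the genome (0.443%), and these places count overlapping runs. The run length and the span were taken from B to D after the values were seen, and the 26 places include that run. E spanned 596 bp from 32258061 to 32258656, 6407 bp beyond D, and had the highest score of the locus, 2348.

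Together B to E covered a stretch of 8966 bp, and their scores added up to 6798, which was 55.4% of the summed score of the Bach2 window. Peaks were joined into chains wherever neighbours lay no more than 12.5 kb apart, a measure chosen after the values were seen. Of 5166 such chains on the nuclear genome, 52 held at least 4 peaks (1.01%), and 9 of these had a summed score at least as high as that at Bach2. Most chains, 4687 of them, were single peaks. A sense intronic transcript, Bach2it1, starts 108 bp after D, and E lies in its second intron. Whether Bach2it1 or Bach2 was transcribed in these cells was not measured.

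The other peaks were spread out. F lay at 49.5 kb from the first start site (32288166 to 32288458, score 1092), still in the first intron. G, at 105.3 kb (32343929 to 32344330, score 1008), and H, at 126.7 kb (32365312 to 32365724, score 643.9), lay in the second intron. I lay in the fourth intron at 287.3 kb (32525929 to 32526295, score 1061). After H came the longest stretch of the gene body between neighbouring peaks, 160.2 kb, and after I the last 59.8 kb of the body held no peak. The median gap between neighbouring Bach2 peaks was 29.5 kb.

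By intron of the protein-coding Bach2 transcript with the first start site, the first (78.11 kb) held 5 peaks, or 6.4 per 100 kb, and the second (100.1 kb) held 2, or 2.0 per 100 kb. The third, of 84.03 kb, held 0, the fourth, of 59.91 kb, held 1, and the fifth and sixth, of 11.87 and 4.37 kb, held 0. The peaks of the gene body thus lay mainly in its first part, with 7 of 8 in the first 2 introns. At Bach1, whose protein-coding transcript has 4 introns, the single peak K lay in the last of them, of 6.828 kb, and the 3 introns before it, of 16.27, 3.182 and 2.251 kb, held 0.

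A and J lay outside Bach2 itself. A (32206351 to 32206747) was intergenic, and the nearest annotated start site of any gene was that of the processed pseudogene Gm11929, 401 bp away. J (32616715 to 32616982) lay past the end of Bach2 in the first intron of Casp8ap2, a gene for a nuclear protein linked to cell death signalling and histone gene expression. It was 1237 bp from the Casp8ap2 start site and 41784 bp from the nearest Bach2 start site, so J was the member that the annotation placed closest to another protein-coding gene.

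No annotated start site of Bach2 or Bach1 had a peak within 1 kb. The closest distance was 1927 bp, between B and the start site of a processed Bach2 transcript at 32247764. For the protein-coding start sites at 32238804 and 32238950 the nearest peak was B, 10887 and 10741 bp away. The protein-coding start site at 32417435 was 51711 bp from its nearest peak, H. The protein-coding start site of Bach1 was 27717 bp from K. By class, 9 of the 10 Bach2 peaks and the Bach1 peak were intronic and the remaining Bach2 peak was intergenic. Among all nuclear peaks 1173 lay within 1 kb of a protein-coding start site (19.8%), 300 over other exons (5.08%), 1907 in introns (32.3%) and 2530 between genes (42.8%). The rule takes in the Bach2 gene body, which is mostly intron. The intronic share of the members was therefore largely set by the rule, and no contrast with all nuclear peaks is drawn.

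The scores of the Bach2 peaks had a lowest value of 592.5, a median of 1065 and a highest value of 2348. Over all nuclear peaks the lowest was 55.38, the median 717.7 and the highest 3221, and the 1907 intronic peaks had a median of 707.2. At Bach2, 8 of 10 peaks reached the upper quartile of the list, at 903.7, and 3 of 10 the top 10%. E ranked 66 of 5910, C 158 and B 192. A and H stood at the other end, at ranks 5201 and 4447.

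The Bach1 peak K spanned 400 bp from 87726662 to 87727061 and had a score of 704.2. Its rank was 3132, so it lay close to the middle of the list and below 8 of the 10 Bach2 peaks. The error of a difference in score between peaks of a single library cannot be estimated, and the sources used here do not give the scale of the score.

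**Figure D2:**
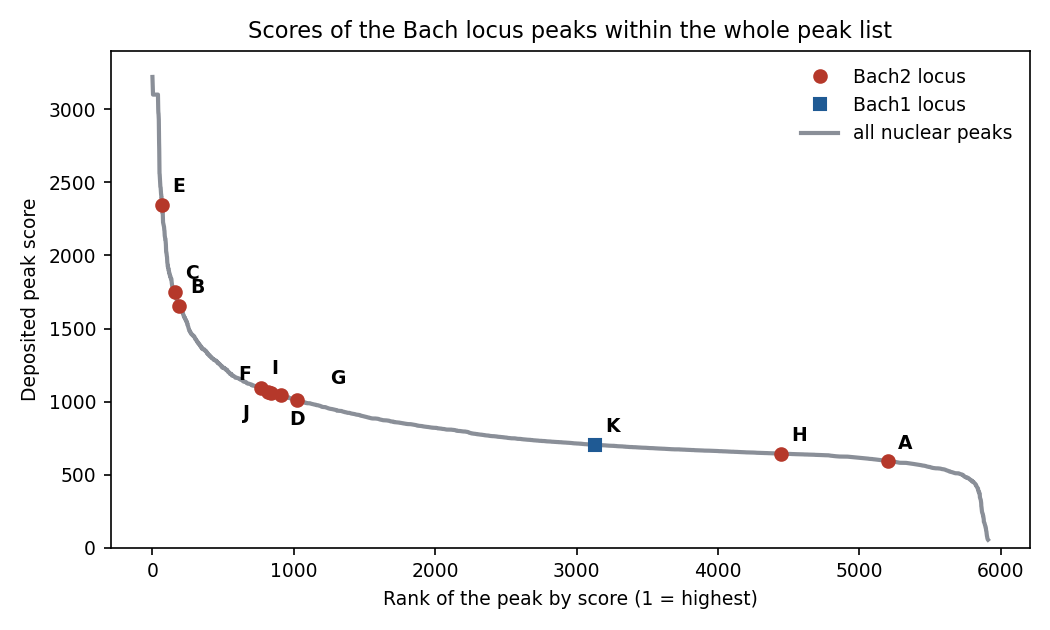
Deposited score of every nuclear peak (grey line, vertical axis) against its rank (horizontal axis, 1 is the highest), with the 10 Bach2 peaks as red circles and the Bach1 peak as a blue square. Peaks E, C and B sit on the steep left end, the group F, J, I, D and G lies between 1008 and 1092, and H, A and the Bach1 peak K lie on the flat part at 704.2 or lower.

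Repeat sequence was compared because reads from repeats can be placed wrongly. Soft-masked repeat bases made up a median of 14.8% of the Bach2 peaks and 15.5% of all nuclear peaks. A stood apart from the other members, with 77.8% of its bases masked. The share of 32-base strings found more than once in the assembly was 10.8% in B and 1.09% in A, and 0% in each of the other 8 Bach2 peaks and in K. Bach2 peaks with less than 20% masked bases and no repeated string numbered 7, namely C to I, all of them in the gene body. GC content of the 10 Bach2 peaks ran from 39.2% in J to 55.6% in D, with a median of 47.3%, against 43.9% for all nuclear peaks. Width had a median of 399.5 bp at Bach2 and 370.0 bp over all nuclear peaks.

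By number of peaks under the rule Bach2 held place 17, tied with 8 more genes at 10 peaks. The 10 genes with the most peaks were Sfi1 (43), Eif4enif1 (42), Gm20388 (28), Drg1 (27) and, at 25 each, predicted genes of a cluster at the start of chromosome 9. These last, Gm10715, Gm10717, Gm10718, Gm10719, Gm10720 and Gm10721 among 9 in all, shared the same 25 peaks, in which a median of 87.5% of strings were repeated in the assembly. Sfi1, Eif4enif1 and Drg1 are neighbours on chromosome 11, and their peaks had medians of 60.3 to 66.6% repeated strings. Gm20388 is an annotation of 4435 kb. Bach2 peaks had a median of 0% repeated strings, as did all nuclear peaks. Of the 25 genes with at least 10 peaks, 3 lay in the chromosome 11 cluster, 9 in the chromosome 9 cluster and 13 elsewhere. Each of these 13, Bach2 and Gm20388 included, had a median of 0% repeated strings.

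In the gene body alone Bach2 held place 3, with 8 peaks, after Sfi1 with 39 and Gm20388 with 27, and 3 of 21938 genes reached 8 (0.0137%). Ets1 and Nr4a1 came next with 7 each. Their bodies were shorter and denser, at 57.6 and 341 peaks per Mb against 23.0 for Bach2. The place of Bach2 counts B and C, 21 bp apart, as separate peaks, and joining close peaks was not tried. Long genes offer more room for peaks. Among the 998 protein-coding genes of 200 kb or longer, a cut chosen after the values were seen, 2 reached 8 peaks in the body (0.2%), Gm20388 and Bach2, while the median was 0 and the upper quartile 1.0. Counting only peaks with little repeat sequence, which left 3238 nuclear peaks, Bach2 had 7 under the rule, fewer than 27 other genes and as many as 12 others. All 7 lay in the body, where Gm20388 alone had more, with 15. The T cell receptor chain gene Cd247 and the nuclear receptor gene Nr4a1 followed with 6 each. Ets1, Cd247, Nr4a1 and the order by little repeat sequence were also singled out after their values were seen.

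**Figure D3:**
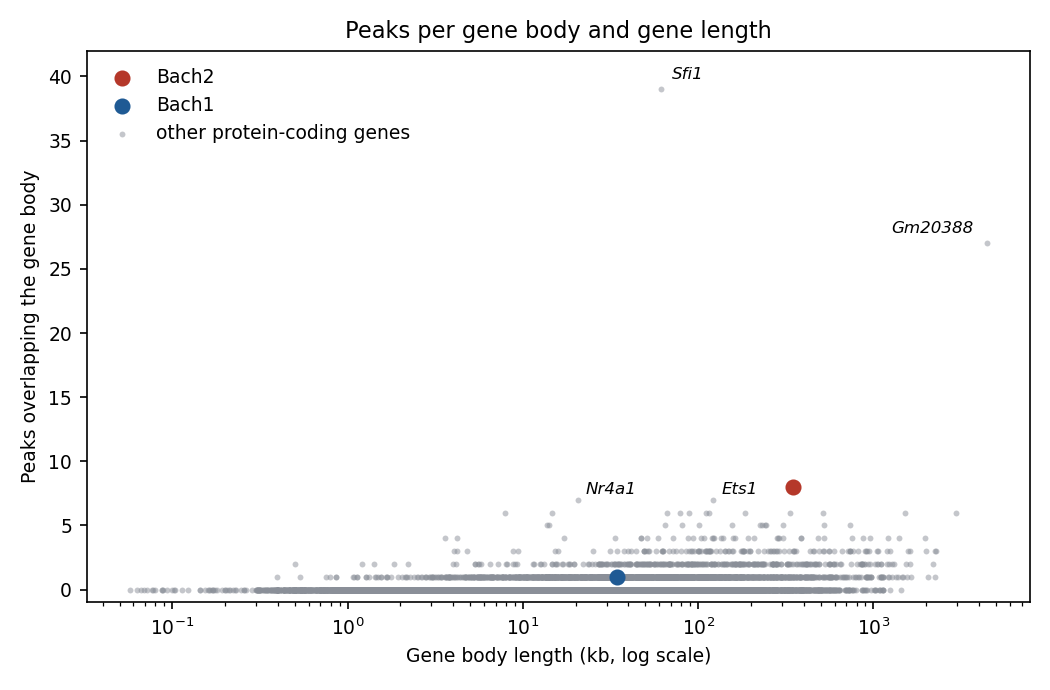
Number of peaks overlapping the gene body (vertical axis) against gene body length in kb on a log scale (horizontal axis) for protein-coding genes, with Bach2 in red, Bach1 in blue and other genes in grey. Bach2, at 8 peaks and 347.3 kb, lies above the other genes of similar length, Bach1 lies in the row of genes with 1 peak, and Sfi1 with 39 and Gm20388 with 27 lie above both.

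Genes with a body between 0.5 and 2 times the length of Bach2 numbered 1066, Bach2 included, with a median of 1.0 peak under the rule. Bach2 alone among them reached 10, which is part of why it was chosen. Nearest to it in number of peaks, the measure of likeness used, were Samd4b and Tox with 9 and Babam2, Ldlrad4 and Thada with 8. Tox, which encodes a DNA-binding regulator of T cell development, had 5 of its peaks in the body, a body density of 16.4 peaks per Mb and a median score of 675.2. Ldlrad4, which encodes a membrane inhibitor of TGF-beta signalling, had 6 in the body, 17.9 per Mb and a median score of 809.6. For Bach2 these values were 8, 23.0 per Mb and 1065. Samd4b had the highest median score of the 5 genes, 1175, with 3 peaks in its body. Babam2 and Thada had 4 and 3 peaks in the body and medians of 836.8 and 656.5.

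Genes within 500 kb showed how far the Bach2 peaks could be assigned to another gene by distance. Before Bach2, the kinase gene Map3k7 had 0 peaks under the same rule, and its nearest peak was A, 214 kb away. After Bach2, the connexin gene Gja10, Casp8ap2 and the ribosome assembly gene Mdn1 had 2 peaks each by the rule, and J was the nearest to all 3, at 14.0, 1.24 and 40.1 kb. J therefore fell under the rule for 4 protein-coding genes including Bach2, and I for 3, since it was also within reach of Gja10 and Casp8ap2. Lyrm2 had 1 peak, which was the peak in Ankrd6 and no member, and Ankrd6 had that same 1. Rragd, Ube2j1 and Gabrr2 had 0, with nearest peaks 121, 156 and 112 kb away.

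Around Bach1, the genes N6amt1, Ltn1, Rwdd2b, Usp16, Cct8 and Map3k7cl had 1 peak each and the glutamate receptor gene Grik1 had 2. K was not among them. Their nearest peaks were 24.2 to 87.5 kb from a start site, so 0 of these 7 neighbours had a peak within 5 kb.

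Sequence motifs were then searched on both strands in whole peaks. The RBPJ core TGGGAA occurred in 3 of 10 Bach2 peaks (30%, Wilson 95% interval 10.8 to 60.3%) and in 1744 of 5910 nuclear peaks (29.5%, 28.4 to 30.7%). The 3 cores are those printed above for A, B and J. In windows of equal length, the central 300 bp, the share was 2 of 10 at Bach2, 25% over all nuclear peaks and 27.4% over 1764 tiles of 300 bp from the Bach2 window outside peaks. At this number of peaks no difference from either background was detectable. C, D and E, which include the peaks with the 2 highest scores, held 0 cores, and their nearest cores lay 176, 658 and 323 bp outside the peak. For C that core was the one in B. For F the nearest core was 81 bp away and for G 3961 bp.

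The longer RBPJ consensus was searched as CGTGAGAA, CGTGGGAA, TGTGAGAA and TGTGGGAA, of which CGTGGGAA and TGTGGGAA contain the core. It occurred in 1 of 10 Bach2 peaks, as TGTGAGAA in I, and in K as TGTGGGAA, against 6.18% of all nuclear peaks. I therefore held a form of the consensus without the core. At Bach2, 6 of 10 peaks held neither, namely C, D, E, F, G and H. The core spelled backwards, AAGGGT, a control string of the same composition, occurred in D and E, or 20% of Bach2 peaks, and in 15.9% of all nuclear peaks.

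The form of AP-1 site that BACH and small Maf proteins bind, printed above for B, occurred in 1 of 10 Bach2 peaks (10%, 1.79 to 40.4%) and in 46 of 5910 nuclear peaks (0.778%, 0.584 to 1.04%). Relative to the centre of B it lay at -95.5 bp, and the RBPJ core of the same peak at 159.5 bp. Tiles of the Bach2 window outside peaks held it at 0.51%. The share at Bach2 rests on a single match, so no comparison was drawn from it. The AP-1 core alone, TGANTCA, which is contained in that site, occurred in B, C and J, or 30% (10.8 to 60.3%), against 11.3% of all nuclear peaks. In windows of 300 bp its share was 20% at Bach2, 9.37% over all nuclear peaks and 8.5% over the tiles.

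Matches to ETS sequences, CCGGAA or AGGAAG, were the most frequent of the 11 motif families at Bach2. They occurred in 8 of 10 peaks (80.0%, 49.0 to 94.3%), all but I and J, and in 41.8% of all nuclear peaks (40.6 to 43.1%). In windows of 300 bp the share was 6 of 10 (60%, 31.3 to 83.2%) at Bach2, 36.1% (34.9 to 37.3%) over all nuclear peaks and 34.5% (32.3 to 36.8%) over the tiles. For windows of equal length the Bach2 interval included both backgrounds. ETS proteins are a large family with members used throughout T cell development, so the sequence names no single factor.

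The RUNX sequence TGTGGT occurred in C and E, 20% of Bach2 peaks against 26.9% of all nuclear peaks. E-boxes, the sites of E proteins and their relatives, were present as CAGCTG in E, F and G (30% against 15.6%) and as CAGGTG in C, E, F and J (40% against 22.2%). E and F held both forms. The TCF/LEF sequence CTTTGA occurred in G (10% against 25.4%) and the GATA sequence AGATAA in H (10% against 20.7%). These shares are for whole peaks, which differ in width. Over windows of 300 bp GATA was at 20% for Bach2, 17.7% over all nuclear peaks and 16.6% over the tiles. For RUNX, both E-boxes, TCF/LEF and GATA, the Bach2 intervals in these windows included both backgrounds. The Bach1 peak K held 1 match each for the RBPJ core, its longer form, CAGGTG and CTTTGA, and 0 for AP-1, RUNX, ETS and GATA. A match is a string of letters, not a bound site.

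**Figure D4:**
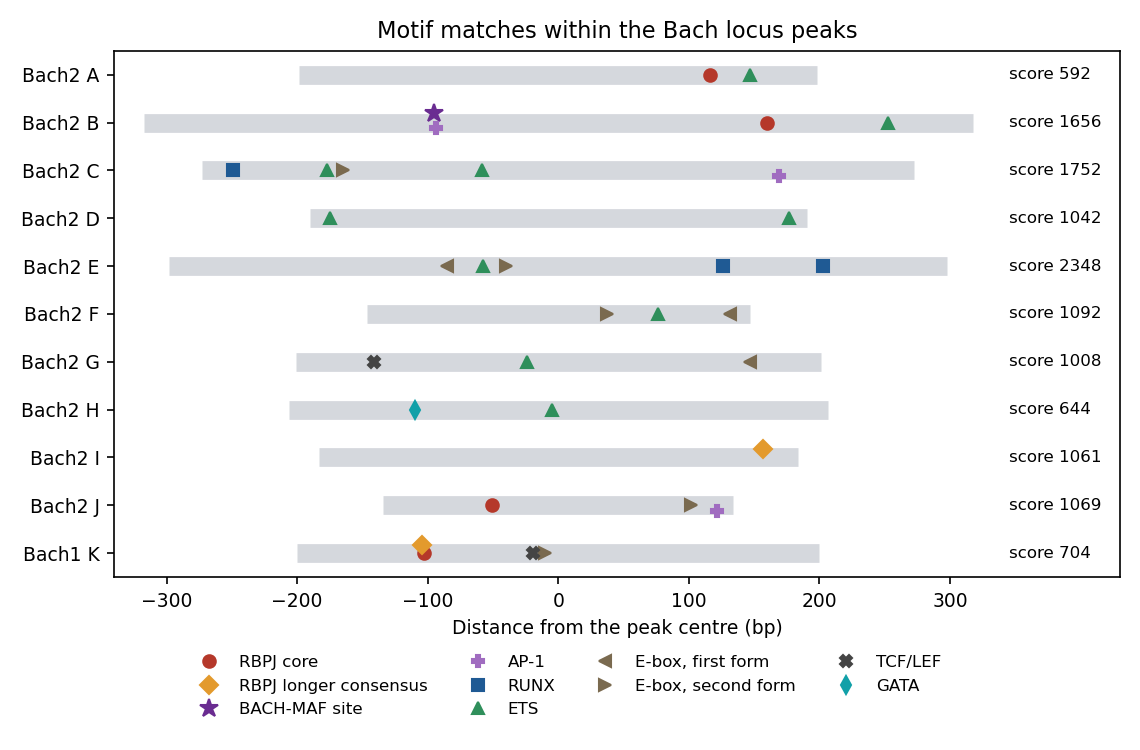
Motif matches (symbols) along the 10 Bach2 peaks and the Bach1 peak (grey bars), by distance from the peak centre in bp on the horizontal axis, with each peak's deposited score at the right. RBPJ cores appear in A, B, J and K and are missing from E, the peak with the highest score, while ETS matches appear in A to H.

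**Figure D5:**
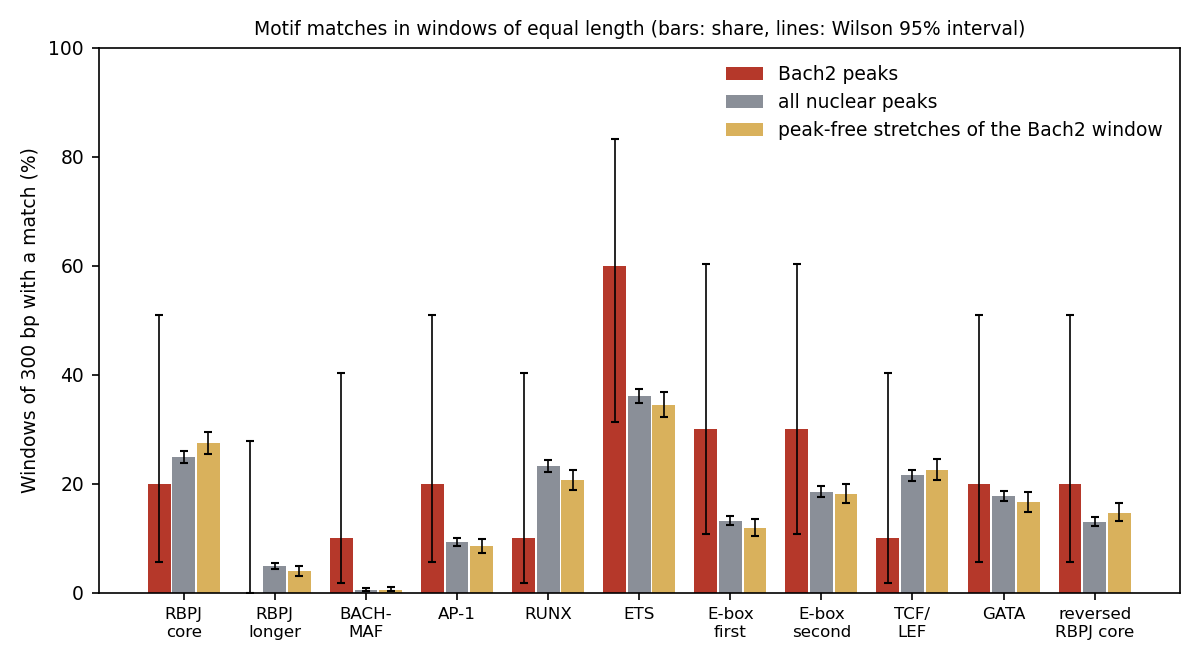
Share of 300 bp windows with a match in percent (vertical axis) for 11 motifs (horizontal axis) in the 10 Bach2 peaks (red), all nuclear peaks (grey) and peak-free stretches of the Bach2 window (yellow), with lines for Wilson 95% intervals. The red intervals are wide because they rest on 10 peaks, and for ETS the red bar at 60% has an interval from 31.3 to 83.2% that includes both backgrounds.

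Genes of the BACH pathway were examined from 6 lists with 72 different genes, by a peak within 5 kb of a start site, which 1933 of 21938 protein-coding genes had (8.81%). Neither Bach2, through its protein-coding start sites, nor Bach1 had such a peak, while the start site of the processed Bach2 transcript at 32247764 had 3, namely B, C and D. In the 6 lists 23 of 72 genes had one (31.9%). Under the wider rule of gene body or 100 kb, 57 of 72 had a peak (79.2%), against the 46.2% of all genes given above. The lists were chosen with earlier results of these data known, and no test was made on them.

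Among dimer partners, the small Maf genes Maff, Mafg and Mafk had a peak within 5 kb in 0 of 3 cases, and the nearest, at Mafk, lay 5.44 kb away, a distance given after the values were seen. Of 4 genes of the related CNC family, Nfe2, which encodes a subunit active in erythroid and megakaryocytic cells, had a peak, with a score of 717.0. Corepressors and regulators of BACH proteins had one in 5 of 14 cases (35.7%). These were the kinase genes Akt1 (1118) and Mtor (975.0), the SUMO protease gene Senp3 (859.9), the BTB repressor gene Bcl6 (859.2) and the deacetylase gene Hdac4 (581.7). The Senp3 and Mtor peaks lay 2528 and 4342 bp from the start site.

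AP-1 and Batf genes, whose products share DNA sites with Bach2, had a peak in 5 of 11 cases (45.5%). Junb had 7 peaks within 5 kb, the highest with a score of 3100, and Fosl2 had 2, the highest at 1484. The value 3100 was shared by all nuclear peaks from rank 5 to rank 40, so the score does not order these peaks. The values of Jund, Fos and Fosl1 were 821.1, 745.7 and 666.0. The other 6 genes of the list had none within 5 kb.

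Known targets of Bach2 in lymphocytes had a peak in 11 of 25 cases (44.0%). By score, these were led by Tbx21, the T-bet regulator of type 1 responses (1215), the chemokine receptor gene Ccr8 (1029) and Prf1, which encodes perforin (804.9). The receptor chain genes Il2ra, Il12rb2 and Il2rb followed at 765.7, 746.3 and 742.1. Prdm1, the target best known in B cells, had a peak with a score of 689.3 at 1328 bp from a start site, with 1 RBPJ core. Cores also lay in the peaks of Il2ra (3), Prf1 (1) and Gata3 (1), and in 29.5% of all nuclear peaks, so the core was not particular to Prdm1. Of the 11 peaks, that at Il12rb1, with a score of 701.9, held a site of the kind printed for B. Prdm1, Gata3 and Il12rb1 were named after their values were seen.

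The list of Bach1 targets in heme metabolism and oxidative stress had a peak in 1 of 16 cases (6.25%), the autophagy receptor gene Sqstm1, with a score of 594.0. Hmox1, the heme oxygenase gene that is the best known Bach1 target, had its nearest peak at 12.4 kb, and the quinone reductase gene Nqo1 at 9.54 kb. Hmox1 and Nqo1, which had no peak within 5 kb, were named after their values were seen. Beside the 8.81% of all protein-coding genes, the share was 6.25% for Bach1 targets and 44.0% for Bach2 targets. It was 45.5% for AP-1 and Batf genes and 35.7% for corepressors and regulators, so a high share was not particular to Bach2 targets. Because the lists were chosen with earlier results of these data known, no conclusion is drawn from these shares. The difference between the lists was not tested.

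Marker genes of several cell types were also counted, but a peak is not expression, so the counts do not identify the cell type. A peak within 5 kb was found at 2 of 14 gamma delta T cell markers (Blk and Cd163l1), 3 of 8 alpha beta T cell markers (Trac, Trbc1 and Trbc2), 0 of 8 B cell markers, 1 of 8 myeloid markers (Elane) and 0 of 6 markers of thymic stroma. Over all protein-coding genes the share with such a peak was 8.81%, and no difference between the marker sets was tested. The part of other cell types in the Bach2 peaks was not tested.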

How the data were processed

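Gamma delta T cells were profiled by Notch1 ChIP-seq in 1 library, with 1 input library; grouping followed the antibody label. Bowtie 1.0.0, SAMtools 0.1.18 and build mm10 are named, per the submitters' processing notes. The deposited peak list gives a position, a name starting with MACS and the authors' score for each of 5913 peaks. The sources used here do not give the version and settings of the peak caller, the scale of the score, the control used, the treatment of duplicate and multiply mapped reads or the depth. Amplification by 18 PCR cycles without molecular identifiers and reads from repeats can both raise a score. The 3 mitochondrial peaks were left out.

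Peaks were placed on GRCm38 with the GENCODE M21 annotation, in coordinates counted from 1, using Python 3.11.15, numpy 2.4.6, scipy 1.17.1, numba 0.67.0 and matplotlib 3.10.9. Classes were promoter (1 kb either side of a protein-coding start site), exon, intron and intergenic, in that order. Motifs were matched exactly on both strands, and the counting steps were tested on simulated data. Shares carry Wilson 95% intervals, for counting error only.

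The members and lists were chosen with earlier results of these data known, and some targets on the lists also appear in those results. Named genes were both members with all their peaks, genes within 500 kb, up to 6 genes by score per list, the 10 genes with the most peaks and the 5 genes of similar length nearest to Bach2 in number of peaks. Exceptions are marked. Alternatives changed the window, the annotation, the score limit, the repeat limit, the motif and its window.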

Additional observations from a re-analysis of the deposited data

How the results depend on the processing

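The count of 10 Bach2 peaks ranged from 7 to 10 over all alternatives, lowest for peaks with little repeat sequence, and 8 for the gene body alone, a 5 kb flank, the median score or the upper quartile. The median score of the Bach2 peaks ranged from 1061 to 1077 over the alternatives that did not filter on score. The limits at the median and the upper quartile each gave 1081, but a filter on score cannot lower the median. The Bach1 count of 1 became 0 with peaks at or above the median score, in the upper quartile or with little repeat sequence. The share of Bach2 peaks with the RBPJ core was 30%. It became 0% for peaks with little repeat sequence, 10% in the central 200 bp and 10% for the longer consensus. Under the other settings it was 12.5 to 30%. For little repeat sequence and the central 200 bp, the share over all nuclear peaks was not counted. A drop particular to Bach2 therefore cannot be told from a general one. Over all nuclear peaks, the core was also less frequent in the central 300 bp than in whole peaks. The longer consensus was less frequent there than the core as well. Of the 72 list genes, 23 had a peak within 5 kb, 14 within 1 kb, 39 within 20 kb and 14 with peaks at or above the median score, while the shares of all protein-coding genes were 5.16%, 17.7% and 5.07% under these 3 settings. The cause of these moves was not tested. No paired analysis was possible because the values come from 1 library and no test. The limits are that there is no replicate and no known depth, that the input library was not analysed here, and that 10 peaks leave wide intervals.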
